A study of Mus musculus with 17 samples.

Results

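The S100 genes encode small calcium-binding proteins with paired EF-hand motifs. Most work as dimers that bind target proteins when calcium rises, and several are released from cells and act on receptors of neighbouring cells. S100A8 and S100A9 form calprotectin, an abundant complex of neutrophils and monocytes that is used as a marker of inflammation. S100A10 is unusual in that it binds its partner, annexin A2, without calcium. Of the 24453 gene models in the deposited table, 8 carried the symbol of an S100 gene chosen here by name (S100a1, S100a4, S100a6, S100a8, S100a9, S100a10, S100a11 and S100a13). Of these, 7 passed the filter on low values and were tested, and S100a9 was listed at 0 in every library.

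The study asked what separate members of AP-1, the family of dimeric transcription factors that includes ATF3, Jun and JunD, do in macrophages. Immortalised bone marrow-derived macrophages (iBMDMs) of male C57Bl/6EiJ mice, made with a retrovirus carrying Myc and Braf V600E, were the parent cells of 4 groups. For the knockouts, cells with Cas9 received a lentivirus with a pair of guides and a tagBFP2 marker, by which they were sorted. All 4 groups are recorded as vehicle-treated. The titles of the Scramble control name zsGreen, which no knockout title does, so the control may differ from the knockouts in its marker as well as in its guides, and these cannot be told apart. The sources used here do not say whether a line was 1 clone. Groups of 2 polyA RNA libraries each were labelled Scramble, Atf3KO, JunKO and JunDKO. Thioglycollate-elicited macrophages (TGEMs) are primary cells that collect in the peritoneum after an irritant is injected. They came from 8-week-old male C57Bl/6EiJ or Balb/cJ mice and were given PBS as vehicle, or the TLR4 agonist Kdo2 lipid A (KLA) for 1 h. There was 1 library for each of C57Bl/6EiJ vehicle, C57Bl/6EiJ KLA and Balb/cJ vehicle, and 2 for Balb/cJ KLA. Where no source names separate cultures or animals, p-values measure only the spread between these libraries, which may be technical.

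Values are RPKM, reads scaled by exon length and library size, so that levels of different genes can be compared. Depth was 1553296 to 18444338 reads per library, and the 8 genes held 0 to 8731 reads in a library. All 8 macrophage markers checked were at 1 RPKM or more in every library, though their levels differed between groups. Their sum, mostly the lysozyme gene Lyz2, was 22314 to 23851 RPKM in Scramble, 16880 to 17442 RPKM in JunDKO, 23623 to 33015 RPKM in Atf3KO, 30717 to 31018 RPKM in JunKO and 7803 to 10847 RPKM in TGEMs. The targeted transcripts were not lower than in Scramble in 2 of 3 lines. Scramble held 80.7 and 77.4 RPKM of Atf3, and Atf3KO held 154 and 169 RPKM, and Jun was at 26.2 and 20.5 RPKM in the libraries labelled JunKO against 17.6 and 18.5 RPKM in Scramble. Jund was at 6.94 and 6.07 RPKM in the libraries labelled JunDKO against 9.19 and 8.33 RPKM in Scramble, without passing the test (adjusted p = 0.654, limma). In Atf3KO, Jund was called higher than in Scramble by limma (2.19 log2), with replicates far apart at 22.6 and 83.0 RPKM. Jun was at 17.9 and 46.2 RPKM there and did not pass the test (adjusted p = 0.192, limma). Protein was examined in the study by western blot, which was not analysed here. Read counts over a whole gene do not show whether a guide cut it, so each line is called here by its label, and each direction given for a line is that of the labelled libraries.

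All 8 genes lie on mouse chromosome 3 (GRCm38, mm10), in the cluster that keeps S100 genes together in mammals. In the table's coordinates S100a1 spans chr3:90511034-90514330 on the minus strand and S100a13 begins 104 bases away at chr3:90514435-90524581 on the plus strand, so the pair is arranged head to head. S100a4 (chr3:90603770-90606045), S100a6 (chr3:90612894-90614414), S100a8 (chr3:90669071-90670034, all plus strand) and S100a9 (chr3:90692630-90695721, minus strand) follow. S100a11 (chr3:93520496-93526288) and S100a10 (chr3:93555117-93564645) form a second group further along the chromosome. RefSeq also places an S100a13 start at base 90514233, inside the S100a1 model on the other strand, and the strand setting of the counting is not given in the sources used here.

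Because the lines were made by targeting AP-1 factors, the 250 bases before a RefSeq start of each gene were searched on both strands. The AP-1 site TGACTCA, which reads TGAGTCA on the other strand, was searched for first, and then the related site TGACGTCA. For S100a13 the window lay before base 90514435, and the bases before its other start at 90514233 were not searched in full. RefSeq windows (GRCm38.p6) were at hand for 7 of the 8 genes, all but S100a10. The first site was found only in the S100a11 window, in 2 copies that begin 136 and 38 bases before the start, and the second in none of the 7. Of 32851 promoter windows of the same length, 4.46% held the first site and 1.55% the second. The windows of S100a11, and of S100a6 and S100a8, the pair whose levels differed most between lines, are printed here with the AP-1 sites in capitals. A match is a run of letters and not a measured binding site.
S100a11, chr3:93520246-93520495, plus strand: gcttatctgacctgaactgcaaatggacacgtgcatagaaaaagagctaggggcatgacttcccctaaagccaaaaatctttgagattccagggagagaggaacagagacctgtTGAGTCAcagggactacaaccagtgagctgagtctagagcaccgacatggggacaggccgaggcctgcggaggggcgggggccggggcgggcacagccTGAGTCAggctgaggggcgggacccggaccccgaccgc
S100a6, chr3:90612644-90612893, plus strand: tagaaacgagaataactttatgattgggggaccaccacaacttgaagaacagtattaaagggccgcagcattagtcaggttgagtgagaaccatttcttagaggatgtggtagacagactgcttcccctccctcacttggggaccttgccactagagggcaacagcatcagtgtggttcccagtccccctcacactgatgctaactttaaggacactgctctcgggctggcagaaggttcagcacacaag
S100a8, chr3:90668821-90669070, plus strand: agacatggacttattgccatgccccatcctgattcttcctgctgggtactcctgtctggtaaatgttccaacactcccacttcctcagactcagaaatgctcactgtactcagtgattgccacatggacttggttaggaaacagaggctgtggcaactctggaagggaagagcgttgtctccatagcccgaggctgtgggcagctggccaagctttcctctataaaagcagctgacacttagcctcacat

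In Scramble iBMDMs the S100 genes covered a wide range of levels. S100a4, a motility-linked protein that binds non-muscle myosin, was the 12th most abundant of all models by mean RPKM, at 1580 and 1411 RPKM. S100a10 followed at 416 and 369 RPKM. S100a6, also called calcyclin, was at 92.9 and 111 RPKM, and S100a11, an annexin A1 partner, was at 98.6 and 93.7 RPKM, so that these genes overlapped. S100a1, best known from heart muscle, was at 67.1 and 68.0 RPKM. S100a8 (34.8 and 33.2 RPKM) and S100a13, which takes part in the release of proteins that lack a signal peptide (32.2 and 30.5 RPKM), were the lowest of the 7. S100a9 was listed at 0, and Gapdh, a gene that every cell uses, was also listed at 0 in some libraries, so nothing is read from the zeros of S100a9. Of 10 further S100 genes, 9 were in the table, 5 of those were at 0 in all 13 libraries, and the highest value among the rest was 1.77 RPKM, so none was tested.

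**Figure D1:**
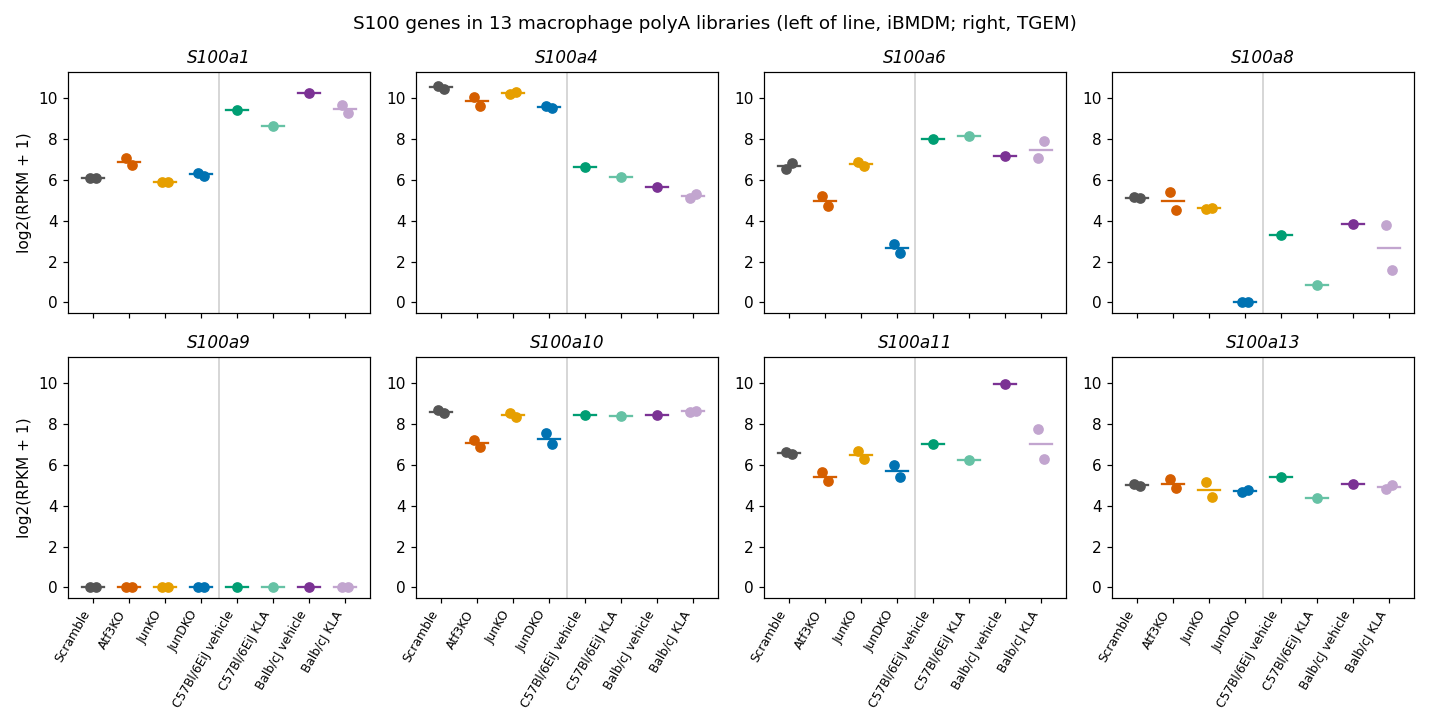
Level of each S100 gene, as log2(RPKM + 1) on the y axis, in every library (points) with the group mean (bar) for 4 iBMDM groups left of the line and 4 TGEM groups right of it. S100a4 is high in iBMDMs and S100a1 in TGEMs, S100a8 is at 0 in both JunDKO libraries, and S100a9 is at 0 throughout.

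In the libraries labelled JunDKO, S100a6 was lower than in Scramble by 16.3-fold and S100a10 by 2.50-fold on the log2(RPKM + 1) scale, and S100a8 had no read. These 3 of 7 tested genes passed the call (adjusted p under 0.05, 2-fold, and a mean of 16 RPKM in either group), all lower, where 2.27% of the 10691 models tested were called lower. The median difference of the 7 genes was -0.97 (log2), beside 0.24 over all models.

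S100a6 was at 6.31 and 4.40 RPKM in JunDKO, against 92.9 and 111 RPKM in Scramble, 36.6 and 25.5 RPKM in Atf3KO, and 116 and 102 RPKM in JunKO. No JunDKO library came near any other iBMDM library, and the 2 replicates of each line stayed together. S100a6 fell by 4.03 ± 0.24 (SE, log2 scale, adjusted p = 4.83e-05, limma, n = 2 per group), with a 95% confidence interval of -4.58 to -3.48.

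S100a8 had 0 reads in both JunDKO libraries. It was at 34.8 and 33.2 RPKM in Scramble (26 and 22 reads), 41.1 and 21.8 RPKM in Atf3KO (70 and 61 reads), and 22.7 and 24.1 RPKM in JunKO (15 and 16 reads). Both JunDKO libraries lay below the other 6 iBMDM libraries, whose groups overlapped in part, and 1 of the JunDKO libraries was the deepest of all 13. Set against a floor of 3 reads over both JunDKO libraries (0.388 RPKM), the mean S100a8 level was 87.7-fold higher in Scramble and 60.4-fold higher in JunKO. With the shallow JunDKO replicate 1 alone the floor rose to 4.99 RPKM and these ratios came to 6.82-fold and 4.69-fold. The floor covers counting error only. The ratios leave out the counting error of Scramble and JunKO, at 15 to 26 reads per library, so they are not lower bounds. The call passed the limma test (adjusted p = 3.47e-05), and its fitted log2 value depends on the pseudocount and is not used as a size. As said of S100a9, a listed 0 in this table can also occur for a gene that is expressed. The ratios to the floor therefore hold for the counted reads, and such a loss of reads was not tested for S100a8. Of the 8 macrophage markers, 3 were below both Scramble libraries in JunDKO (among them Itgam, at 213 and 220 RPKM against 441 and 420 RPKM), 4 were above both (among them Mertk, at 36.1 and 36.8 RPKM against 7.04 and 8.27 RPKM) and 1 overlapped, and their part in the S100 differences was not tested. The 10 neutrophil markers summed to 11.2 and 8.62 RPKM in Scramble and 11.1 and 10.9 RPKM in JunDKO, nearly all of it Mmp8, with Ly6g, Camp and Retnlg listed at 0 in every library, and the part of such cells in S100a8 was not tested.

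S100a10 was at 188 and 130 RPKM in JunDKO, below both Scramble libraries (416 and 369 RPKM) and both JunKO libraries (376 and 329 RPKM). It fell by 1.32 ± 0.22 (SE, log2, adjusted p = 0.00745, limma). That call was lost without Scramble replicate 1 (-1.23, adjusted p = 0.0616) and without JunDKO replicate 2 (-1.06, adjusted p = 0.0752).

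The other genes of the family did not pass the call in JunDKO. S100a4 was at 778 and 747 RPKM, below both Scramble libraries, with a difference of -0.97 (log2, adjusted p = 0.0150, limma) that missed the 2-fold limit. S100a11 was at 63.2 and 41.9 RPKM, also below Scramble, with a difference of -0.89 (adjusted p = 0.0597). With library medians set equal, which lowers the median difference of all models from 0.24 to -0.04, both passed, at -1.25 and -1.16 (log2), and S100a11 also passed with limma-voom (-1.07, adjusted p = 0.0250). S100a1 (80.2 and 72.9 RPKM, adjusted p = 0.552) and S100a13 (24.5 and 26.8 RPKM, adjusted p = 0.541) lay within 0.28 of Scramble on the log2 scale.

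In the libraries labelled Atf3KO, S100a6, S100a10 and S100a11 were lower by 2.25-fold to 3.25-fold. These 3 of 7 genes were called, all lower, where 4.69% of models were called lower. The Atf3KO libraries held fewer models above 0, at 10425 and 10631 against 12207 and 12491 in Scramble. They were deeper, at 4397161 and 7236844 reads against 1929987 and 1711540 in Scramble. Removing the trend with GC content cut the share of all models called from 12.5% to 7.69%, and these 3 genes kept their calls. The part of the lower number of models in the S100 differences was not tested. The median difference of the 7 genes was -0.69 (log2), beside 0.05 over all models. The summed neutrophil markers were also lower, at 1.03 and 0.283 RPKM against 11.2 and 8.62 RPKM in Scramble, nearly all of it Mmp8 (-2.74 log2, adjusted p = 5.36e-04, limma), and the part of such cells was not tested.

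S100a6 was at 36.6 and 25.5 RPKM, below Scramble and above JunDKO, and fell by 1.70 ± 0.24 (SE, log2, adjusted p = 0.00183, limma). S100a10 was at 149 and 118 RPKM, the lowest of the 4 groups together with JunDKO, and fell by 1.56 ± 0.22 (adjusted p = 0.00186, limma). S100a11 was at 49.2 and 36.0 RPKM and fell by 1.17 ± 0.25 (adjusted p = 0.00868, limma). The 2 Atf3KO libraries were below both Scramble libraries for each of these genes. The S100a11 call was lost in a fit of all 13 libraries (-1.17, adjusted p = 0.0588), without Scramble replicate 2 (-1.21, adjusted p = 0.0511), and without Atf3KO replicate 2, the sole iBMDM library with a later date in its label (-0.95, adjusted p = 0.0518).

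S100a1 went the other way in Atf3KO. It was at 134 and 105 RPKM, above both Scramble libraries (67.1 and 68.0 RPKM), a difference of 0.80 ± 0.17 (SE, log2, adjusted p = 0.00904, limma) that stayed under 2-fold. After removal of the trend with GC content it was 0.50 (adjusted p = 0.0557). S100a4 was at 1082 and 794 RPKM, below Scramble (-0.69, adjusted p = 0.0226), also under 2-fold. S100a8 (adjusted p = 0.637) and S100a13 (39.1 and 28.1 RPKM, adjusted p = 0.832) overlapped with Scramble.

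In the libraries labelled JunKO no S100 gene was called by limma, 0 of 7 passed an unadjusted p under 0.05, and limma-voom on the recovered reads also called 0. Here 0.196% of models were called in either direction by limma and by limma-voom alike, and 7.88% had an unadjusted p under 0.05. The difference closest to the 2-fold limit was that of S100a8, -0.52 (log2), with a 95% confidence interval of -1.17 to 0.13. The intervals of S100a6 (-0.45 to 0.65) and S100a10 (-0.66 to 0.35) leave out a 2-fold change.

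**Figure D2:**
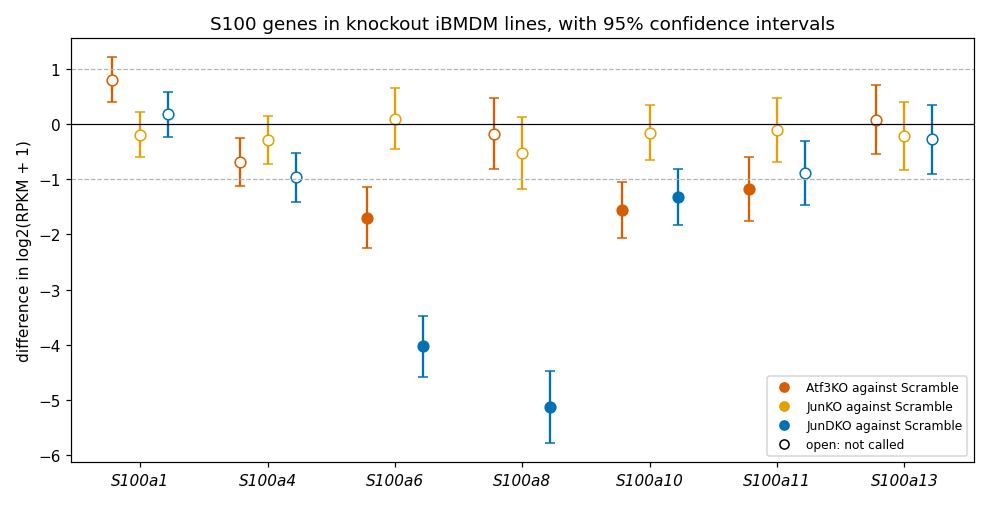
Difference in log2(RPKM + 1) between each knockout line and Scramble on the y axis for 7 S100 genes, as fitted values with 95% confidence intervals, filled where called, with dashed lines at 2-fold. S100a6 and S100a8 lie at -4.03 and -5.13 in JunDKO, S100a10 is below -1 in Atf3KO and JunDKO, and all JunKO intervals cross 0. The S100a8 value in JunDKO is set by the pseudocount.

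Since the 3 lines share their Scramble libraries, the lines were also compared with each other. S100a6 was lower in JunDKO than in JunKO (-4.13 log2, adjusted p = 7.86e-05, limma) and than in Atf3KO (-2.33, adjusted p = 4.07e-04, limma). S100a8 was lower in JunDKO than in both (adjusted p = 8.36e-05 and 4.59e-05, limma). Its mean in Atf3KO was 81.2-fold above the same floor of 3 reads, or 6.3-fold with JunDKO replicate 1 alone. Against JunKO, S100a10 was called too, at -1.16 (log2, adjusted p = 0.0168, limma), though the gene missed the call in 6 of 18 alternatives, including the omission of JunKO replicate 1 (-1.07, adjusted p = 0.119), JunKO replicate 2 (-1.26, adjusted p = 0.0839) or JunDKO replicate 2 (-0.90, adjusted p = 0.144). In all, 3 of 7 genes were called lower in JunDKO than in JunKO, where 1.90% of models were, and 2 of 7 were called lower than in Atf3KO, where 5.50% of models were. For S100a10 and S100a11, JunDKO and Atf3KO did not pass a test of their difference, at 0.24 (95% confidence interval -0.27 to 0.75) and 0.28 (-0.30 to 0.87) on the log2 scale.

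The partners and receptors of S100 proteins were followed as a list of 18 genes, of which 14 were tested in iBMDMs. In Atf3KO 5 of 14 were called lower and 0 higher, where 4.69% of all models were called lower and 7.84% higher. In JunDKO 2 were called lower and 0 higher, where 2.27% of models were lower and 2.69% higher. In JunKO 0 were called, where 0.196% of models were called in either direction. The median of the 14 was -0.82 (log2) in Atf3KO, -0.16 in JunKO and -0.17 in JunDKO, beside 0.05, 0.005 and 0.24 over all models.

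Anxa2, which encodes the annexin that binds S100A10, was among the genes called in both lines. Its levels were 1068 and 881 RPKM in Scramble, 466 and 437 RPKM in Atf3KO, 914 and 812 RPKM in JunKO, and 207 and 179 RPKM in JunDKO. The order from JunKO and Scramble down to Atf3KO and JunDKO held without overlap between the last 2 lines and the rest. Anxa2 fell by 1.10 ± 0.18 (SE, log2, adjusted p = 0.00282, limma) in Atf3KO. In JunDKO it fell by 2.33 ± 0.18 (adjusted p = 1.93e-04, limma), and the direct difference of the lines was -1.23 (adjusted p = 0.00149, limma). S100a10 itself did not pass that direct test.

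**Figure D3:**
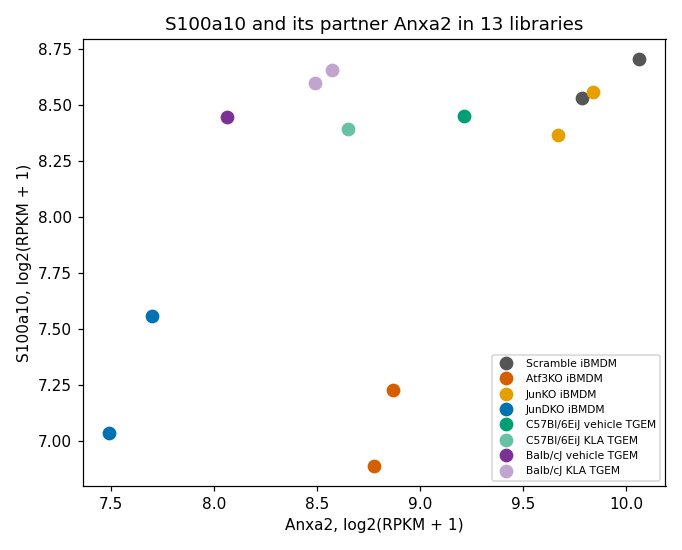
S100a10 against Anxa2, both as log2(RPKM + 1), in 13 libraries coloured by group. Scramble and JunKO lie at the upper right, Atf3KO and JunDKO are the lowest in S100a10, and TGEM libraries have S100a10 near the Scramble level with less Anxa2.

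Anxa1, whose protein binds S100A11, was at 613 and 685 RPKM in Scramble, 174 and 112 RPKM in Atf3KO, and 293 and 312 RPKM in JunDKO. It fell by 2.21 ± 0.23 (SE, log2, adjusted p = 5.84e-04, limma) in Atf3KO. In JunDKO it fell by 1.10 ± 0.23 (adjusted p = 0.0193, limma), and it was higher in JunDKO than in Atf3KO by 1.11 (adjusted p = 0.00703, limma). Both groups lay below Scramble. The scavenger receptor Cd36, a binding site for S100A8 and S100A9 complexes with fatty acid, was at 110 and 156 RPKM in Scramble and 12.3 and 8.29 RPKM in Atf3KO, and fell by 3.57 ± 0.24 (SE, log2, adjusted p = 1.10e-04, limma). In JunDKO it was at 135 and 145 RPKM, inside the Scramble range.

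The remaining calls in Atf3KO were Cacybp (-1.21) and Sugt1 (-1.20 log2), whose proteins bind S100A6. Tlr4, the receptor that S100A8 is known to engage, was at 25.2 and 33.1 RPKM in Scramble and 20.9 and 11.5 RPKM in Atf3KO (adjusted p = 0.0505, limma). It was higher in JunDKO (29.1 and 36.6 RPKM) than in Atf3KO by 1.02 (log2, adjusted p = 0.0266, limma), as was Sugt1 by 1.40 (adjusted p = 0.00378). Ager, which encodes the receptor RAGE, was at 2.99 and 3.06 RPKM in Atf3KO (19 and 32 reads) and at 0.404 RPKM or less in the other iBMDM libraries, and its mean was too low to be tested.

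In primary macrophages the family had another make-up. S100a1 was the most abundant of the 8 genes in all 5 TGEM libraries, at 33.4% to 50.6% of their summed RPKM, against 2.89% to 9.34% in the 8 iBMDM libraries. S100a4 made up 62.5% to 73.0% of the sum in iBMDMs and 1.79% to 6.27% in TGEMs. These ranges do not overlap for either gene.

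**Figure D4:**
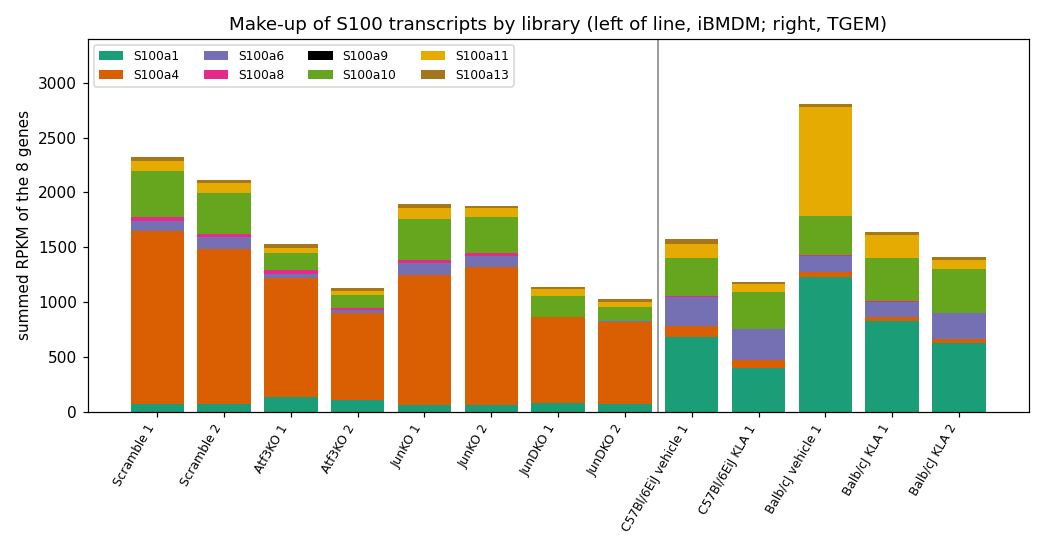
Summed RPKM of the 8 S100 genes (y axis) in each library, stacked by gene, for 8 iBMDM libraries left of the line and 5 TGEM libraries right of it. S100a4 fills most of each iBMDM bar and S100a1 is the largest part of each TGEM bar, with S100a11 next in Balb/cJ vehicle.

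Vehicle TGEMs of both strains were compared with Scramble iBMDMs, also given vehicle. Each strain held 1 vehicle library. The SE and p-values of this comparison therefore draw on the spread within other groups, and not on that between vehicle TGEM libraries. S100a1 was at 681 RPKM in C57Bl/6EiJ and 1224 RPKM in Balb/cJ, above all 8 iBMDM libraries, and was higher than in Scramble by 3.74 ± 0.20 (SE, log2, adjusted p = 4.31e-06, limma). S100a4 was at 98.7 and 50.1 RPKM, below all iBMDM libraries, with a difference from Scramble of -4.39 ± 0.20 (adjusted p = 2.40e-06, limma). With S100a11 this gave 3 of 7 genes called, where 19.9% of 10929 models were. The median difference was 0.25 (log2) for the 7 genes and -0.32 over all models.

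S100a11 was at 132 RPKM in C57Bl/6EiJ vehicle and 993 RPKM in Balb/cJ vehicle, and its call (1.90 ± 0.43, SE, log2, adjusted p = 0.00653, limma) rested on the second. Without that library the difference was 0.45 (adjusted p = 0.517). S100a6 was higher in TGEMs (261 and 145 RPKM) than in Scramble by 0.93 (log2, adjusted p = 0.0316), under 2-fold. It passed at 1.35 (adjusted p = 0.0183) without the Balb/cJ library, and at 1.24 with equal library medians, which moved the median of all models from -0.32 to -0.02. S100a8, at 8.84 and 13.2 RPKM, was below all 6 iBMDM libraries that were not JunDKO, with a difference of -1.56 (adjusted p = 0.0598). S100a10 (349 and 348 RPKM) differed from Scramble by -0.17 (95% confidence interval -0.67 to 0.34), although Anxa2 was lower (-1.29, adjusted p = 5.94e-04, limma). S100a13 was at 42.0 and 33.1 RPKM in vehicle TGEMs, a difference of 0.25 (95% confidence interval -0.36 to 0.85).

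Markers of macrophages and of other cells moved with this comparison. Of the 8 macrophage markers, 6 were below both Scramble libraries in vehicle TGEMs and 2 above. Adgre1 was at 669 and 744 RPKM in Scramble and 60.7 and 31.1 RPKM in vehicle TGEMs, while Cd68 was at 467 and 353 RPKM in Scramble and 2053 and 4050 RPKM in vehicle TGEMs. Fibroblast and mesothelial markers summed to 36.4 to 73.9 RPKM in TGEMs and at most 0.426 RPKM in iBMDMs (5 genes, with 4 at 1 RPKM or more in each TGEM library), and B cell markers to 10.1 to 23.9 RPKM against at most 0.488 RPKM (4 genes). Their part in the differences was not tested, and in bulk libraries fewer cells of a type and less RNA per cell cannot be told apart. The origin of the cells, immortalisation, culture and date differ together here and cannot be told apart. Strain was shared with the C57Bl/6EiJ vehicle library, and with it as the sole TGEM library S100a1 (3.32 log2, adjusted p = 3.87e-05, limma) and S100a4 (-3.91, adjusted p = 1.76e-05, limma) kept their calls. Of the partner genes, 2 of 15 were called higher in TGEMs and 4 lower, where 7.04% of all models were called higher and 12.8% lower, with Cd36 up by 2.02 and Il1a, an exported cytokine, up by 4.20, and with Cacybp (-1.88), Trp53 (-1.76), Anxa2 (-1.29) and Myh9 (-1.12 log2) lower.

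After 1 h of KLA no S100 gene was called over the 5 TGEM libraries with strain in the model. The count was 0 of 7 by limma and 3 at an unadjusted p under 0.05 (S100a1, S100a8 and S100a11), and limma-voom called 1 (S100a11). Of 10357 models, 1.13% were called by limma, 15.0% had an unadjusted p under 0.05 and limma-voom called 2.20%. The median difference was -0.54 (log2) for the 7 genes and -0.14 over all models.

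S100a11 was at 132 RPKM in C57Bl/6EiJ vehicle and 75.8 RPKM in its KLA library, and at 993 RPKM in Balb/cJ vehicle and 215 and 77.4 RPKM in the Balb/cJ KLA libraries. Every KLA library was below the vehicle library of its strain, but the strains overlapped. The fitted difference was -2.01 ± 0.58 (SE, log2, adjusted p = 0.201, limma), and limma-voom gave -2.16 (adjusted p = 0.00244). It was -0.79 between the C57Bl/6EiJ libraries, which share a label date, and -2.20 between Balb/cJ vehicle and the KLA library of its date.

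S100a1 was at 681 and 396 RPKM without and with KLA in C57Bl/6EiJ, and at 1224 RPKM against 830 and 623 RPKM in Balb/cJ. All 3 KLA libraries were below their vehicle library, with log2 differences of -0.78, -0.56 and -0.97 and a fitted difference of -0.77 (adjusted p = 0.259, limma). S100a4 was likewise below its vehicle level in each KLA library (adjusted p = 0.421, limma). It was at 98.7 and 70.9 RPKM without and with KLA in C57Bl/6EiJ, and at 50.1 against 33.9 and 38.8 RPKM in Balb/cJ. For both genes the Balb/cJ differences share a single vehicle library, so they are not independent. Balb/cJ KLA replicate 2 has no vehicle library of its label date, so KLA and date cannot be told apart there.

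S100a8 rested on few reads. It went from 39 reads (8.84 RPKM) in C57Bl/6EiJ vehicle to 1 read (0.794 RPKM) with KLA, a ratio of 11.1 whose 95% counting interval (exact) was 1.88 to 451. In Balb/cJ the vehicle library held 13.2 RPKM (12 reads). The first KLA library held 87 reads, a ratio of vehicle to KLA of 1.02 (0.505 to 1.87), and the second 1.96 RPKM (5 reads), a ratio of 6.74 (2.21 to 24.4), so the KLA libraries of this strain lay apart. The summed neutrophil markers went from 13.9 to 5.46 RPKM in C57Bl/6EiJ and from 20.3 to 11.1 and 3.30 RPKM in Balb/cJ, so that in the first Balb/cJ KLA library the sum was lower while S100a8 was near its vehicle level. Nearly all of that sum was Mmp8, and the part of such cells in S100a8 was not tested.

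The remaining genes did not pass the test either. S100a10 stayed between 335 and 402 RPKM in all 5 TGEM libraries, with a difference of 0.08 (95% confidence interval -0.52 to 0.67) that leaves out a 2-fold change. S100a6 was at 261 and 287 RPKM in C57Bl/6EiJ and at 145 against 135 and 238 RPKM in Balb/cJ (adjusted p = 0.762). S100a13 was at 42.0 and 19.9 RPKM in C57Bl/6EiJ and 33.1 against 27.4 and 31.7 RPKM in Balb/cJ (adjusted p = 0.423). In the same libraries Il1a, whose protein leaves cells in a complex with S100A13, went from 16.2 to 471 RPKM in C57Bl/6EiJ and from 30.4 to 2084 and 1021 RPKM in Balb/cJ, and rose by 5.21 ± 0.38 (SE, log2, adjusted p = 8.97e-04, limma). It was the sole gene called of 15 tested partners, where 1.13% of all models were called.

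**Figure D5:**
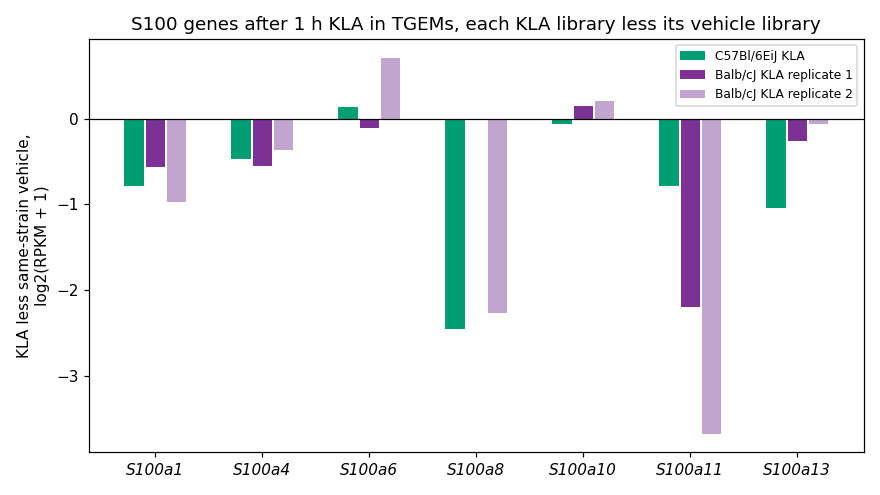
Difference in log2(RPKM + 1) between each KLA library and the vehicle library of its strain (y axis) for 7 S100 genes, 1 bar per KLA library. S100a1, S100a4 and S100a11 have bars below 0 throughout, where the median KLA difference over all models was -0.145 (log2). S100a8 is at -0.02 in Balb/cJ replicate 1 and below -2 in the other libraries, and S100a13 is at -0.06 in Balb/cJ replicate 2. Both Balb/cJ bars of a gene use the same vehicle library.

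The strains were compared in the same fit. No S100 gene was called by limma, 3 of 7 had an unadjusted p under 0.05 (S100a1, S100a4 and S100a11), and limma-voom called 1 (S100a11). Of all models, 1.16% were called by limma, 21.4% had an unadjusted p under 0.05 and limma-voom called 3.33%. S100a1 was at 623 to 1224 RPKM in Balb/cJ and 396 to 681 RPKM in C57Bl/6EiJ, which overlap, with a difference of 0.85 (log2, adjusted p = 0.136, limma). S100a4 was at 33.9 to 50.1 RPKM in the 3 Balb/cJ libraries and 70.9 to 98.7 RPKM in the 2 C57Bl/6EiJ libraries, without overlap, a difference of -0.96 (log2, adjusted p = 0.0998, limma). S100a11 differed by 1.68 (adjusted p = 0.167, limma), a value that moved with single libraries. It was 0.76 without the Balb/cJ vehicle library (adjusted p = 0.679) or without the C57Bl/6EiJ vehicle library (adjusted p = 0.683), 2.90 without the C57Bl/6EiJ KLA library (adjusted p = 0.135), and 2.20 (adjusted p = 0.0298) without Balb/cJ KLA replicate 2. Strain and date cannot be told apart, because no label date holds both strains, and reads of each strain were aligned to a genome of its own. None of the 7 genes passed a test of the KLA effect differing between strains, and the smallest adjusted p was that of S100a11 (-2.14 log2, adjusted p = 0.683, limma, 1 residual degree of freedom).

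Across all 13 libraries, the genes outside the family with the highest Pearson correlation of log2(RPKM + 1) were taken for each member, as a description over 8 groups that share libraries and differ in depth. For S100a1 they were Pianp (r = 0.988) and Cd22 (0.982), a receptor known from B cells. For S100a4 they were Dgcr8 (0.995) and Kpnb1 (0.994), and for S100a6 the protease gene Ctsk (0.952) and Dnm1 (0.948). S100a8 was most like Cald1 (0.964) and Fas (0.926), S100a10 most like Syn1 (0.906) and Mir22hg (0.904), and S100a11 most like B2m (0.963) and Rab7 (0.910). S100a13, whose level varied least (19.9 to 42.0 RPKM over the 13 libraries), reached 0.722 with Arl3 and 0.697 with Mblac1.

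Within the family, S100a10 and S100a11, which are neighbours on the chromosome, had an r of 0.983 over the 8 iBMDM libraries and 0.583 over all 13. S100a1 and S100a4 were opposite over 13 libraries (-0.960), a value set by the iBMDM and TGEM groups, and -0.409 within iBMDMs. S100a1 and S100a13, which begin 104 bases apart, had an r of 0.442 in iBMDMs and 0.210 over 13 libraries.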

How the data were processed

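The authors aligned reads with STAR to mm10 (Balb/cJ reads to a custom genome), and the deposited table holds RPKM over exons by HOMER for 24453 models. Versions and strand setting are not given in the sources used here. Exon length, a further column of other kind, was deposited in the same table. Depth was recovered from the steps of RPKM times length, which gave whole reads within 0.05 for values up to 50 reads. Reads without molecular identifiers mean that intervals and floors cover counting error only. Of 17 samples, 13 have a column, and 4 GRO-seq samples were not analysed here. The S100 genes, gene lists and tests were chosen with earlier results of these data known.

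log2(RPKM + 1) was fitted with limma 3.58.1 (R 4.3.3) for models averaging 1 RPKM or more, with a coefficient per iBMDM group (8 libraries), treatment and strain in TGEMs (5), or 8 groups (13). P values are two-sided and Benjamini-Hochberg adjusted over all models tested, also when a comparison leaves a group with 1 library, which is then assumed to vary like the rest. A call needed an adjusted p under 0.05, 2-fold and a mean of 16 RPKM in either group. The added 1 makes fold changes of low genes too small. Named were all 8 members, list genes that were called (up to 6 per list and comparison), Anxa2, Tlr4 and Ager, the targeted genes, and the 2 most alike genes of each member, and Gapdh, Ly6g, Camp, Retnlg, Mmp8, Lyz2, Adgre1, Cd68, Itgam and Mertk were named after their values were seen. Poisson and conditional binomial intervals are exact. The fits were tested on simulated data. Alternatives covered pseudocounts, filters, scalings, GC and length trends, limma-voom, the call limits, left-out libraries, the replicate block and the fit's samples, and a fit of Scramble, JunKO and JunDKO alone was added after seeing the data.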

Additional observations from a re-analysis of the deposited data

Results flagged for a closer look

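S100a10 was at 349 and 335 RPKM in C57Bl/6EiJ TGEMs without and with KLA, and at 348 RPKM against 386 and 402 RPKM in Balb/cJ. The KLA change was -0.06 on the log2 scale in C57Bl/6EiJ and 0.15 and 0.21 in the Balb/cJ libraries, so that the strains moved in opposite directions. The difference of the changes was 0.24 (log2, adjusted p = 0.945, limma, 1 residual degree of freedom), and it did not pass the test.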

How the results depend on the processing

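Each result was recomputed with 1 choice changed at a time, except that the fit of Scramble, JunKO and JunDKO alone was also run with the replicate block. With a log2 fold change of at least 2 required, 0 S100 genes were called in Atf3KO against Scramble, where 2.47% of all models were. With equal library medians 5 were called in JunDKO against Scramble, with S100a4 and S100a11 added, where 4.93% of all models were called. For KLA against vehicle 1 gene, S100a11, was called by limma-voom, which called 2.20% of models, and in a fit of all 13 libraries, which called 1.87%. For Balb/cJ against C57Bl/6EiJ the same gene gave a count of 1 in both, which called 3.33% and 3.08% of models, and leaving out 1 library gave 0 to 1. In all other alternatives the counts of called S100 genes were within 1.5 times the main count, and no called S100 gene changed sign. For single genes, 922 of the recomputed values counted as the same, 18 lost a call, 14 gained one and 5 moved. The 5 and some of the 922 are KLA differences within a label date. Those have no call and were compared with the main value by size, and the rest of the 922 kept their side of the call.

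The iBMDM labels share replicate numbers. The differences between replicates 1 and 2 correlated at 0.185 to 0.225 between Scramble, JunKO and JunDKO, whose libraries share a label date, and at -0.215 to -0.120 between Atf3KO and these groups, so the numbers may pair the former 3 groups, which no label states. With the replicate number as a block over all 4 groups, 3 S100 genes were called in Atf3KO, 0 in JunKO and 3 in JunDKO, as without the block. Of all models, 12.3%, 0.0748% and 4.73% were called in these lines with the block. In a fit of the 3 groups alone, chosen after seeing the data, the counts were 0 in JunKO and 3 in JunDKO with and without the block. The share of all models called rose with the block in this fit, from 0.15% to 0.589% in JunKO and from 5.11% to 5.39% in JunDKO. S100a8 (0 to 87 reads) and S100a6 in JunDKO (at least 7 reads) are limited by depth, and each TGEM group but Balb/cJ KLA holds 1 library.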
